A study of Rattus norvegicus with 9 samples.

Results

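The genes described here are the heat shock and unfolded protein response genes of the rat kidney. They were taken by name from the table of expressed genes: HSP70 and HSP110 proteins (symbols starting with Hspa or Hsph), HSP90 (Hsp90), small heat shock proteins (Hspb), the mitochondrial chaperonin (Hspd and Hspe), J proteins (Dnaja, Dnajb and Dnajc) and 15 named genes of the endoplasmic reticulum (ER) stress pathway and of heat shock control. The rule found 84 of the 19367 genes. FPKM is a read density, scaled for transcript length and for the mapped reads of each library, so levels of different genes can be compared. Members were tested where 3 or more of the 9 libraries reached 1 FPKM, which 80 did, as did 13127 genes in all. The 4 members that failed this filter were Hspa1l, Dnajb7, Dnajc5b and Hspb9, all at 0.600 FPKM or below in every library.

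Kidney tissue was sequenced in 3 groups of 3 libraries. The first group came from spontaneously hypertensive rats (SHR, an inbred strain that develops high blood pressure). These rats were given oral dapagliflozin for 8 weeks (10 mg/kg per day). The second group came from SHR without the drug, and the third from Wistar-Kyoto rats (WKY, a normotensive strain). Dapagliflozin blocks SGLT2, the sodium-glucose transporter of the proximal tubule. All rats were 3 months old at the start. A total of 6 SHR were randomised to drug or no drug, and per the treatment protocol the untreated groups received distilled water, whereas another label field says saline. Grouping follows the sample titles, because the strain field names Wistar-Kyoto throughout. No label ties a library to an animal, and p-values measure the spread between libraries. Treated SHR against WKY differ in strain and drug together, and the 3 comparisons share libraries.

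Cells answer damaged or unfolded protein with a pair of separate programmes. In the cytosol, the transcription factor HSF1 induces HSP70, HSP90, small heat shock proteins and their J protein partners, which hold, fold or release client proteins. In the ER, the sensors IRE1 (Ern1), PERK (Eif2ak3) and ATF6 detect unfolded secretory protein and act through the transcription factors XBP1, ATF4 and ATF6 to raise ER chaperones and, under lasting stress, CHOP (Ddit3). Kidney tubule cells make large amounts of membrane transport protein and work at changing salt, oxygen and glucose loads, and both programmes have been studied there.

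Short DNA elements in the promoters link members to these factors. The windows searched ran from 250 bases before to 50 bases after the annotated gene start in RefSeq (build GRCr8), on both strands, and 65 of the 84 members had one, among 27457 promoters in all. The heat shock element, bound by HSF1, was searched as GAA, TTC and GAA with 2 bases of any kind between them, and was found in 5 of the 65 members (7.69%) and in 0.736% of all promoters. The ER stress response element, bound by ATF6 together with NF-Y and by XBP1, was searched as CCAAT and CCACG with 9 bases between them, and was found in 6 members (9.23%) and in 0.0765% of all promoters. Its second form, ATTGG and CCACG with 1 base between them, was found in 3 members (4.62%) and in 0.0546% of all promoters. The unfolded protein response element TGACGTGG was found in 4 members (6.15%) and in 0.637% of all promoters, and the composite CHOP-ATF4 element TGATGCAA was found in 1 member, Herpud1, (1.54%) and in 0.743% of all promoters. A match is a description of letters in this window and not a site shown to be bound. Members were chosen by name as genes of these programmes, so their higher shares are no test of the link. The members with a heat shock element match were Dnaja1, Hspa8, Hspd1, Hspe1 and Hsph1, and those with an ER stress response element were Calr, Canx, Dnajc3, Hsp90b1, Hspa5 and Xbp1. Members without a window were not searched, and elements outside a window or with a mismatch were not counted. A member not named here may still hold the element. The heat shock element matches of Hspd1 and Hspe1 are the same bases in a shared region, counted for each gene.

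Of the 17 members with any match, 6 promoters are shown because the results below turn on these genes, each from 5′ to 3′ on the gene's own strand, with the matched elements in capitals. Xbp1 (chr14:84604373-84604672, + strand) and Hspa5 (chr3:38452766-38453065, + strand) each hold 1 ER stress response element, beginning 65 and 43 bases before the start. Hyou1 (chr8:53602632-53602931, + strand) holds the unfolded protein response element 191 bases before the start. A second-form ER stress response element on the opposite strand overlaps it, and another, on that same opposite strand, begins 88 bases before the start. Hspa8 (chr8:50080264-50080563, + strand) holds a pair of heat shock elements on opposite strands, 213 and 55 bases before the start. Dnaja1 (chr5:60638154-60638453, + strand) holds 1 heat shock element that begins 9 bases after the start. Hspe1 (chr9:64084077-64084376, + strand) holds a pair of overlapping heat shock elements on opposite strands, 65 and 60 bases before the start, and shares 211 bases of its window with Hspd1, which is read in the other direction from the same region.
Xbp1: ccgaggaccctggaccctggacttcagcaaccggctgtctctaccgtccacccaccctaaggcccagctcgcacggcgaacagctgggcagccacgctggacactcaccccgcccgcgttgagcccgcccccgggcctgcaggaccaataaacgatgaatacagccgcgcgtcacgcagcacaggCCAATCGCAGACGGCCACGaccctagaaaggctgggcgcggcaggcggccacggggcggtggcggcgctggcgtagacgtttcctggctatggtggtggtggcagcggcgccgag
Hspa5: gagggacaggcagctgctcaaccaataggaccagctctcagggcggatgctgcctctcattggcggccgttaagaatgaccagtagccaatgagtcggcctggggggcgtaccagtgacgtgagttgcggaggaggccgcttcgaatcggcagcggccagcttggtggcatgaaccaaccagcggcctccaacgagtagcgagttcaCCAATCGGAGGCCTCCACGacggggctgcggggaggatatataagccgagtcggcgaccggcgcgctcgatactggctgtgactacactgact
Hyou1: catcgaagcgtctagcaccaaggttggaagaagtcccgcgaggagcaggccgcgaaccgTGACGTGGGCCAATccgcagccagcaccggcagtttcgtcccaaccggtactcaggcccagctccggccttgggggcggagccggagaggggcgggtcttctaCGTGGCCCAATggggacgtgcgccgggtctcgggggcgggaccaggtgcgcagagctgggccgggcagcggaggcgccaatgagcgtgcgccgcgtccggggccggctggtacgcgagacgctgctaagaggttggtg
Hspa8: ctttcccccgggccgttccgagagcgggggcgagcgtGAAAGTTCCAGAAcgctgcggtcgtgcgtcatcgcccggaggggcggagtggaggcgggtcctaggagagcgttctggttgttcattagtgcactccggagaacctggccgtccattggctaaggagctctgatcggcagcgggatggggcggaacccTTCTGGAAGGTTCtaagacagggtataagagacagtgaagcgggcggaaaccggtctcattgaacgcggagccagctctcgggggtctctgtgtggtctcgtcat
Dnaja1: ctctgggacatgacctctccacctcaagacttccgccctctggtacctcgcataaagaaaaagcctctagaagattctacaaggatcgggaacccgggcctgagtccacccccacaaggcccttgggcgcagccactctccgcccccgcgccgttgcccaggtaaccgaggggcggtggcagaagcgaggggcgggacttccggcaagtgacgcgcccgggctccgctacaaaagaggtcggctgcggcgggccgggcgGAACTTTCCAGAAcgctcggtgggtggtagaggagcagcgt
Hspe1: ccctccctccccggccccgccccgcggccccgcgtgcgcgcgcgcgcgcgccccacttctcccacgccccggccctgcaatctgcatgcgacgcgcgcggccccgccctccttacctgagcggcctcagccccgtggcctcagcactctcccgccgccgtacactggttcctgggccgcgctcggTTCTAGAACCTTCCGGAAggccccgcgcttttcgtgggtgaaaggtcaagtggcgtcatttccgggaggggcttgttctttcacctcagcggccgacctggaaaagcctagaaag

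As a group the members were a steady part of the kidney transcriptome. Their FPKM summed to 0.9015% to 0.9722% of the total in treated SHR libraries, 0.9648% to 1.007% in SHR and 0.8985% to 0.9732% in WKY. The median spread within groups was 0.14 on the log2 scale for members and 0.15 for all genes tested. In SHR over WKY, 2 of 80 members (2.5%) were called at an adjusted p under 0.05 (limma on log2(FPKM + 1), Benjamini-Hochberg adjustment over all 13127 genes), both higher in SHR, against 2.96% of all genes (1.84% higher). In treated SHR over SHR, limma called 0 members and 0.0% of all genes, and at an unadjusted p under 0.05 there were 15 members (18.8%; 7 higher and 8 lower) and 1997 genes (15.2%). In treated SHR over WKY, 17 members (21.2%) were called, 12 higher and 5 lower, against 22.9% of all genes (16.8% higher and 6.09% lower). In each comparison the share of members called was near the share of all genes.

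Other readings gave the same picture of size. Groups did not overlap for 22 members in SHR over WKY (27.5%, against 28.4% of all genes), for 20 in treated SHR over SHR (25.0%, against 19.0%) and for 26 in treated SHR over WKY (32.5%, against 38.6%). The median log2 change was 0.06 for members and 0.07 for all genes in SHR over WKY, 0.02 and 0.04 in treated SHR over SHR, and 0.08 and 0.11 in treated SHR over WKY. Only Hspb1 and Hspb8, both small heat shock proteins, passed 2-fold on the scale of FPKM + 1, and only in treated SHR over WKY. Dividing by median-of-ratios size factors moved the medians of treated SHR over WKY to -0.05 for members and -0.01 for all genes, and the 12 higher and 5 lower calls then became 9 higher and 7 lower. With quantile normalization they became 11 higher and 8 lower.

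**Figure D1:**
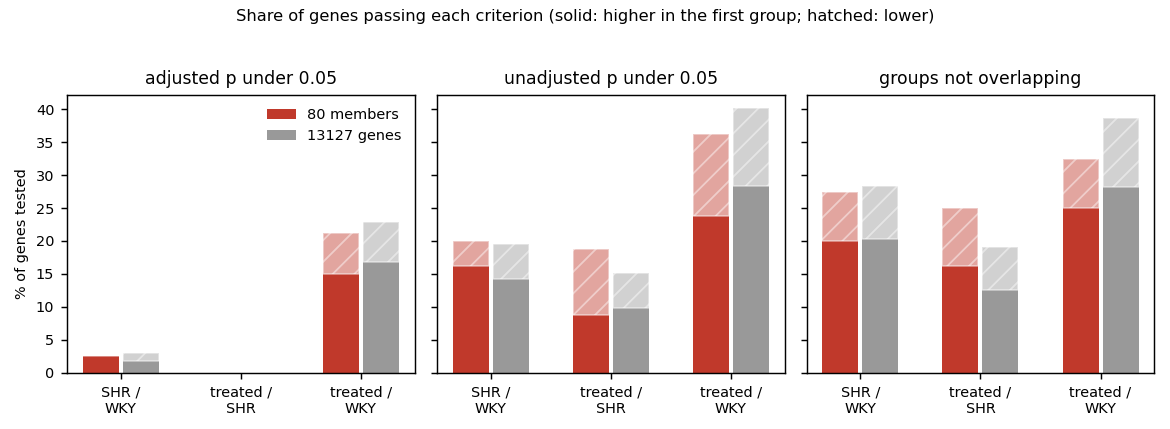
Percent of the 80 members tested (red) and of all 13127 genes tested (grey) that passed each criterion in each comparison, with solid parts higher and hatched parts lower in the group named first. In treated SHR over WKY 21.2% of members and 22.9% of all genes had an adjusted p under 0.05, and neither set had a call in treated SHR over SHR.

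**Figure D2:**
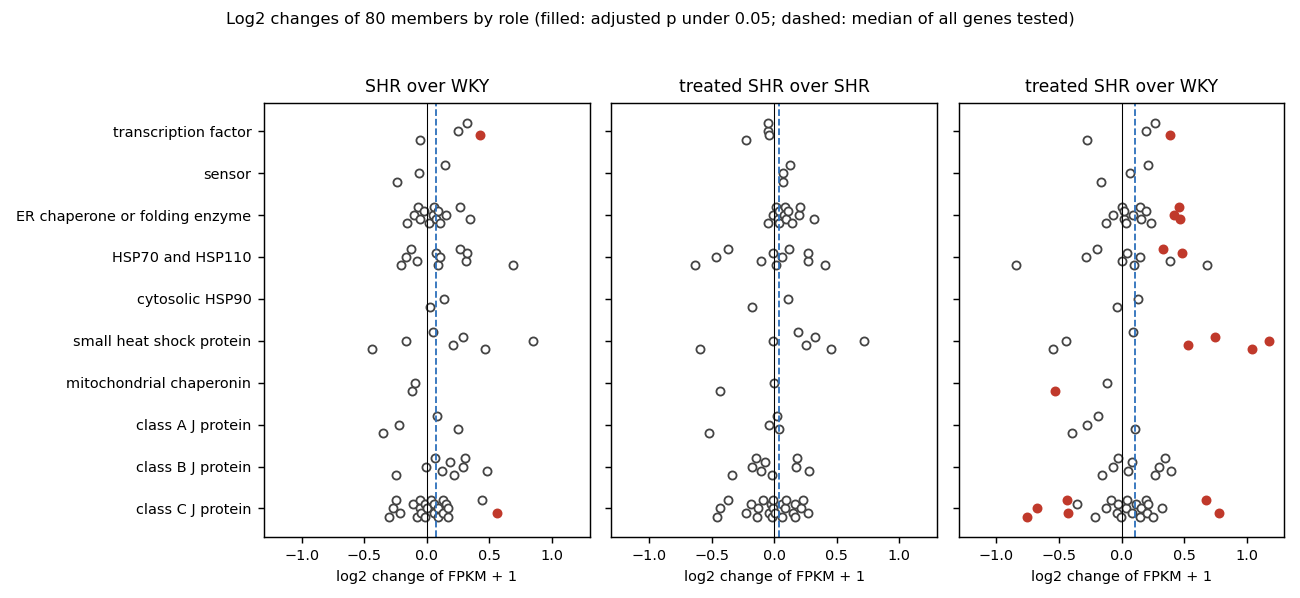
Log2 change (of FPKM + 1) of each of the 80 members, by role, in each comparison; filled points had an adjusted p under 0.05 and the dashed line is the median of all genes tested. The small heat shock proteins Hspb8 and Hspb1 lie farthest to the right in treated SHR over WKY, at 1.18 and 1.04.

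Among the transcription factors, Xbp1 stood out between the strains. XBP1 is made active by IRE1 splicing of its mRNA and drives ER chaperone and secretory genes; these values count both spliced forms together. Xbp1 had 105, 101 and 109 FPKM in treated SHR libraries, against 103, 117 and 105 FPKM in SHR libraries and 81.4, 83.8 and 75.8 FPKM in WKY libraries. All 6 libraries of the hypertensive strain lay above all 3 WKY libraries, and treated and untreated SHR overlapped. The log2 change was 0.43 (SE 0.08) in SHR over WKY (limma, adjusted p = 0.0223; 0.0234 to 0.111 over the alternatives) and 0.38 (SE 0.08) in treated SHR over WKY (adjusted p = 0.0146; 0.0129 to 0.0803 over the alternatives). The first call was lost without SHR library 1, 2 or 3 or without WKY library 1 or 3, and both calls were lost with median-of-ratios scaling. Treated SHR over SHR gave -0.04 (SE 0.08).

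The other factors did not pass the test in any comparison. Hsf1, the heat shock factor, had 19.8, 19.2 and 19.0 FPKM in treated SHR, against 21.2, 19.2 and 19.9 FPKM in SHR and 14.7, 17.5 and 18.2 FPKM in WKY. Every hypertensive library was above every WKY library, by 0.25 (SE 0.09) on the log2 scale in SHR over WKY (limma, adjusted p = 0.177). Ddit3, which encodes the stress factor CHOP, averaged 29.2 ± 3.86 FPKM in treated SHR, 30.2 ± 2.04 in SHR and 24.3 ± 4.24 in WKY (SD, n = 3 each). Atf4, translated when PERK and related kinases slow protein synthesis, averaged 145 ± 5.31 FPKM in treated SHR, 169 ± 12.1 in SHR and 179.6 ± 46.3 in WKY, where library 3 alone reached 231 FPKM. The treated libraries of Atf4 all lay below the SHR libraries, with a log2 change of -0.22 (SE 0.16) in treated SHR over SHR (limma, adjusted p = 0.507).

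The 3 sensors had group means of 5.0 to 13.2 FPKM and no call. Ern1 averaged 5.94 ± 0.191 FPKM in treated SHR, 5.64 ± 0.575 in SHR and 5.0 ± 0.357 in WKY (SD, n = 3 each). Treated and WKY libraries of Ern1 did not overlap, at 0.21 (SE 0.09) on the log2 scale (limma, adjusted p = 0.125). Eif2ak3 averaged 8.39 ± 0.583 FPKM in treated SHR, 7.94 ± 0.516 in SHR and 9.58 ± 1.05 in WKY. Atf6 averaged 13.2 ± 1.16 FPKM in treated SHR, 12 ± 1.02 in SHR and 12.5 ± 0.420 in WKY, and its libraries overlapped in every pair of groups.

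Of the 14 ER chaperones and folding enzymes, 3 rose in treated SHR over WKY (21.4%, against 16.8% of all genes), none fell, and none was called in the other comparisons. The 3 were Hspa5 (BiP, the ER HSP70), Hyou1 (an ER member of the HSP110 family that exchanges nucleotide on BiP) and Dnajc10 (ERdj5, a J protein that reduces disulphide bonds). By mean log2 level 12 of the 14 (85.7%) were higher in treated SHR than in WKY, against 64.6% of all genes, with a median log2 change of 0.12. With median-of-ratios scaling 7 of the 14 were higher, at a median of -0.02 beside -0.01 for all genes, and with quantile normalization 11 were higher (78.6%, against 51.5% of all genes), at a median of 0.10 beside 0.01. Their summed level was 1769, 1639 and 2014 FPKM in treated SHR, against 1732, 1780.0 and 1670.2 FPKM in SHR and 1699, 1705 and 1671 FPKM in WKY. Treated library 3 had the highest sum and treated library 2 the lowest.

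Hspa5 had 227, 191 and 276 FPKM in treated SHR libraries, against 215, 230.3 and 191 FPKM in SHR libraries and 172, 162 and 165 FPKM in WKY libraries. WKY was lowest throughout, and treated library 3 was the highest of all. Hspa5 rose by 0.46 on the log2 scale (SE 0.13) in treated SHR over WKY (limma, adjusted p = 0.0391; 0.0300 to 0.128 over the alternatives). The same gene gave 0.34 (SE 0.13) in SHR over WKY (limma, adjusted p = 0.207) and 0.11 (SE 0.13) in treated SHR over SHR (adjusted p = 0.696). The call of Hspa5 was lost with median-of-ratios scaling, at 0.32 (limma, adjusted p = 0.128), with only the 2 groups in the fit, with no filter, and when SHR library 1 or 2, treated library 3 or any WKY library was left out.

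Hyou1 had 34.3, 33.9 and 43.4 FPKM in treated SHR libraries, against 32.8, 33.3 and 30.5 FPKM in SHR libraries and 25.9, 28.2 and 25.6 FPKM in WKY libraries. The 3 groups formed 3 separate ranges, with treated SHR highest and WKY lowest. Its log2 change was 0.46 (SE 0.10) in treated SHR over WKY (limma, adjusted p = 0.0179; 0.00977 to 0.0699 over the alternatives), 0.27 (SE 0.10) in SHR over WKY (adjusted p = 0.201) and 0.20 (SE 0.10) in treated SHR over SHR (adjusted p = 0.376). Dnajc10 had 33.1, 42.5 and 46.0 FPKM in treated SHR libraries, against 32.0, 30.7 and 33.7 FPKM in SHR libraries and 29.8, 29.6 and 29.8 FPKM in WKY libraries. Treated library 1 lay within the SHR range and the other treated libraries above it. The log2 change of Dnajc10 was 0.42 (SE 0.11) in treated SHR over WKY (limma, adjusted p = 0.0306; 0.00230 to 0.0994 over the alternatives).

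Calr, Pdia3 and Hsp90b1, 3 abundant ER chaperones, had similar means in the 3 groups. Calr (calreticulin, which binds glycoproteins and calcium) averaged 501 ± 54.5 FPKM in treated SHR, 503 ± 17.6 in SHR and 499 ± 36.3 in WKY (SD, n = 3 each). Pdia3, its disulphide isomerase partner, averaged 284 ± 28.9 FPKM in treated SHR, 266 ± 8.58 in SHR and 279 ± 9.09 in WKY. Hsp90b1 (GRP94, the ER HSP90) averaged 186 ± 20.0 FPKM in treated SHR, 183 ± 3.89 in SHR and 175 ± 20.9 in WKY. Their log2 changes lay between -0.07 and 0.09 in every comparison. Canx and Pdia6, named after their values were seen, did not pass either, although every SHR library of Canx lay below every WKY library (-0.16; limma, adjusted p = 0.293) and every treated library of Pdia6 above every SHR library (0.21; adjusted p = 0.332). Herpud1, a stress-induced protein of ER-associated degradation, averaged 106 ± 8.95 FPKM in treated SHR, 103 ± 13.6 in SHR and 104 ± 8.24 in WKY. Dnajb9 (ERdj4, a J protein of BiP) averaged 19.2 ± 0.575 FPKM in treated SHR, 19.9 ± 1.04 in SHR and 18.7 ± 1.23 in WKY. Sdf2l1, found in ER chaperone complexes, averaged 18.2 ± 3.04 FPKM in treated SHR, 17.0 ± 2.12 in SHR and 16.4 ± 2.85 in WKY. For these 3 genes, which commonly respond to ER stress, libraries overlapped between every pair of groups.

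**Figure D3:**
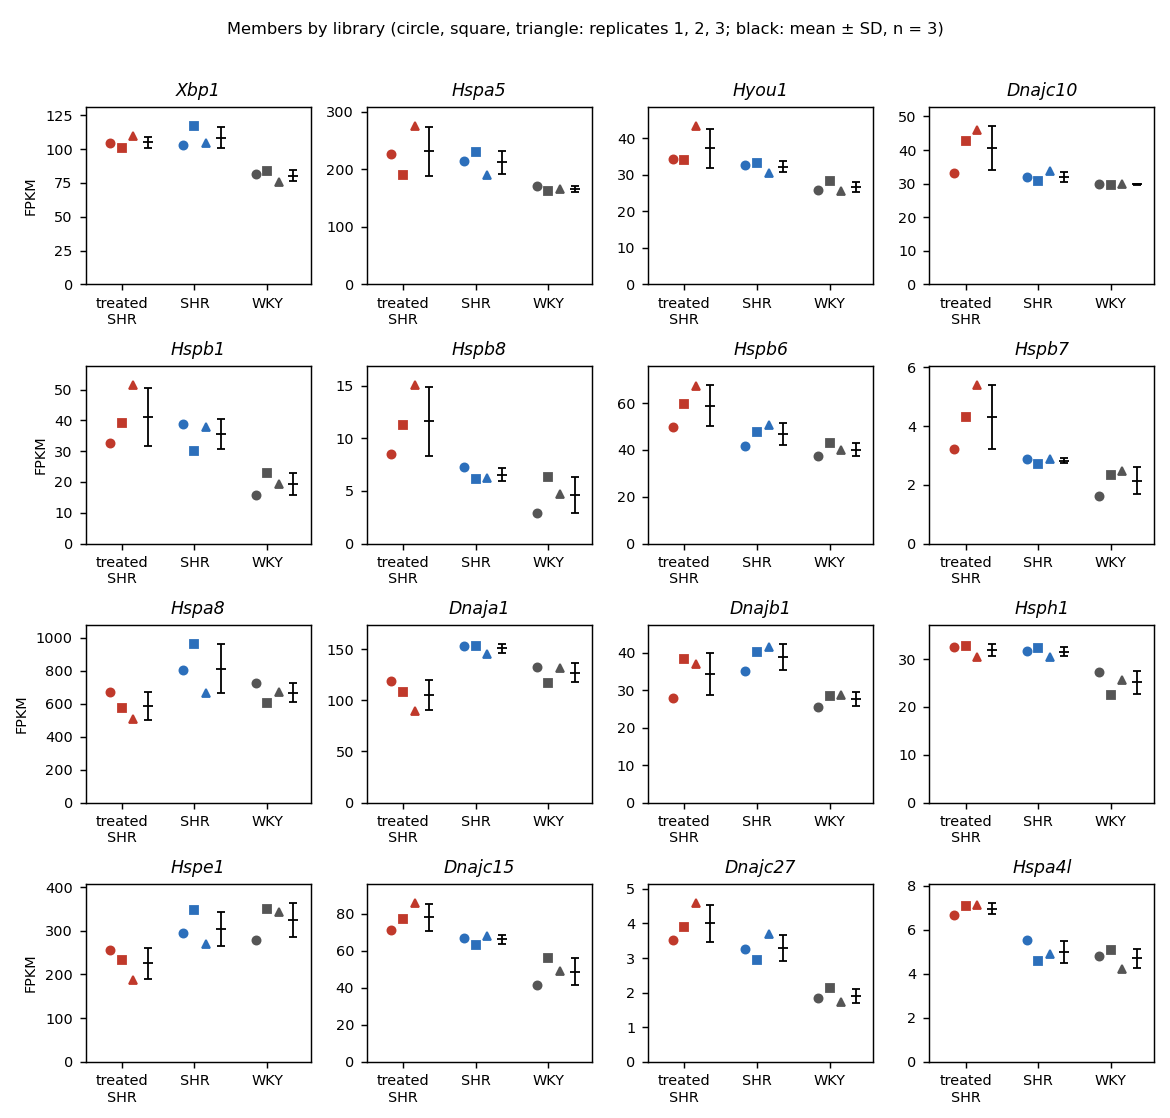
FPKM of 16 members in each library (circle, square and triangle for replicates 1, 2 and 3), with the mean and SD of each group in black. Xbp1 lies at 101 to 117 FPKM in all 6 SHR libraries and at 75.8 to 83.8 FPKM in WKY, and Dnaja1 lies at 89.8 to 119 FPKM in the treated libraries, below the 146 to 153 FPKM of SHR.

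Among the HSP70 and HSP110 proteins other than BiP and Hyou1, Hspa4l and Hsph1 rose in treated SHR over WKY, which is 18.2% of the 11 tested against 16.8% of all genes, and none was called in the other comparisons. The 11 include Hspa9 of the mitochondria and Hspa13 of the ER. Hspa4l and Hsph1 belong to the HSP110 branch, which exchanges nucleotide on HSP70. Hspa4l had 6.67, 7.09 and 7.13 FPKM in treated SHR libraries, against 5.55, 4.56 and 4.91 FPKM in SHR libraries and 4.80, 5.07 and 4.24 FPKM in WKY libraries. The treated libraries stood above both other groups, which overlapped. Its log2 change was 0.48 (SE 0.10) in treated SHR over WKY (limma, adjusted p = 0.0143; 0.0104 to 0.0614 over the alternatives) and 0.41 (SE 0.10) in treated SHR over SHR (adjusted p = 0.281).

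Hsph1 (HSP105) had 32.5, 32.8 and 30.4 FPKM in treated SHR libraries, against 31.7, 32.3 and 30.5 FPKM in SHR libraries and 27.4, 22.6 and 25.6 FPKM in WKY libraries. The hypertensive libraries, treated or not, shared 1 range above WKY. Hsph1 changed by 0.33 on the log2 scale (SE 0.08) in treated SHR over WKY (limma, adjusted p = 0.0241; 0.0214 to 0.182 over the alternatives) and 0.32 (SE 0.08) in SHR over WKY (adjusted p = 0.0839), and the call was lost with both other scalings.

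Hspa8 (HSC70, the constitutive cytosolic HSP70) had the highest mean level of the members over all 9 libraries. It had 674, 575 and 505 FPKM in treated SHR libraries, against 806, 963 and 666 FPKM in SHR libraries and 725, 607 and 669.9 FPKM in WKY libraries. Treated libraries tended low and SHR library 2 was highest, but treated library 1 lay above SHR library 3. Its log2 change was -0.47 (SE 0.16) in treated SHR over SHR (limma, adjusted p = 0.286) and 0.27 (SE 0.16) in SHR over WKY (adjusted p = 0.381). The stress-inducible Hspa1b averaged 1.73 ± 0.261 FPKM in treated SHR, 1.74 ± 1.13 in SHR and 1.16 ± 0.739 in WKY (SD, n = 3 each), and its near-identical copy Hspa1a can share its reads, so its level is uncertain. Hspa2, an HSP70 best known from the testis, had 8.12, 3.66 and 4.42 FPKM in treated SHR libraries, against 7.62, 9.01 and 9.02 FPKM in SHR libraries and 12.8, 6.72 and 11.5 FPKM in WKY libraries. Treated libraries 2 and 3 were lowest while treated library 1 lay within the SHR range, and the log2 change of -0.64 (SE 0.28) in treated SHR over SHR did not pass (limma, adjusted p = 0.324). In treated SHR over WKY, Hspa2 had the largest fall of any member, -0.84 (SE 0.28), and missed the threshold (limma, adjusted p = 0.0566; 0.00834 to 0.173 over the alternatives). It passed there without treated library 1 or WKY library 2.

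The remaining HSP70 and HSP90 members had no call. Hspa12b, an endothelial HSP70 relative, averaged 3.02 ± 0.739 FPKM in treated SHR, 3.04 ± 0.662 in SHR and 1.54 ± 0.656 in WKY (SD, n = 3 each), a log2 change of 0.69 (SE 0.23) in SHR over WKY (limma, adjusted p = 0.161). Hspa9, the mitochondrial HSP70, averaged 162 ± 10.3 FPKM in treated SHR, 134 ± 6.19 in SHR and 151 ± 16.7 in WKY. Every treated library of Hspa9 lay above every SHR library, at 0.27 (SE 0.10) on the log2 scale (limma, adjusted p = 0.290). Hsp90ab1, the constitutive cytosolic HSP90, averaged 603 ± 30.7 FPKM in treated SHR, 559 ± 31.7 in SHR and 549 ± 24.8 in WKY. Hsp90aa1, the inducible form, averaged 154 ± 10.9 FPKM in treated SHR, 174 ± 11.7 in SHR and 158 ± 11.3 in WKY.

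The small heat shock proteins, which bind unfolding protein without using ATP, held the largest changes. Of 7 tested, 4 rose in treated SHR over WKY (57.1%, against 16.8% of all genes): Hspb1, Hspb8, Hspb6 and Hspb7. The others were Hspb2, Hspb11 and Hspb3, which passed the filter only through its WKY libraries, and none of the 7 was called in SHR over WKY or in treated SHR over SHR. Summed over all 8, the level was 113, 129 and 157 FPKM in treated SHR, against 111, 109 and 113 FPKM in SHR and 77.5, 92.9 and 90.3 FPKM in WKY. The hypertensive libraries all lay above WKY, and treated library 1 lay level with the highest SHR library while treated libraries 2 and 3 stood above it. The median log2 change of the 7 in treated SHR over WKY was 0.53 beside 0.11 for all genes, and 0.40 beside -0.01 with median-of-ratios scaling.

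Hspb1 (HSP27, also a binder of actin) had 32.8, 39.1 and 51.5 FPKM in treated SHR libraries, against 38.7, 29.9 and 37.9 FPKM in SHR libraries and 15.7, 23.0 and 19.5 FPKM in WKY libraries. Treated and untreated SHR overlapped, and WKY lay below both. Hspb1 had a log2 change of 1.04 (SE 0.19) in treated SHR over WKY (limma, adjusted p = 0.0108; 0.00356 to 0.0466 over the alternatives), 0.85 (SE 0.19) in SHR over WKY (adjusted p = 0.0516; 0.0293 to 0.177 over the alternatives) and 0.19 (SE 0.19) in treated SHR over SHR. Hspb1 in SHR over WKY missed the threshold with all 9 libraries in the fit and passed it with median-of-ratios scaling, in a fit of the 2 groups alone, and without treated library 1 or 3 or WKY library 2.

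Hspb8 (HSP22, a partner of the co-chaperone BAG3) had 8.53, 11.3 and 15.1 FPKM in treated SHR libraries, against 7.25, 6.10 and 6.26 FPKM in SHR libraries and 2.89, 6.34 and 4.70 FPKM in WKY libraries. All treated libraries lay above the others, and SHR and WKY overlapped. Its log2 change of 1.18 (SE 0.25) in treated SHR over WKY was the largest of any member (limma, adjusted p = 0.0160; 0.00554 to 0.0573 over the alternatives), and it was 0.72 (SE 0.25) in treated SHR over SHR (adjusted p = 0.285). Hspb7, best known from heart muscle, had 3.22, 4.31 and 5.40 FPKM in treated SHR libraries, against 2.87, 2.71 and 2.87 FPKM in SHR libraries and 1.63, 2.32 and 2.47 FPKM in WKY libraries. The 3 groups did not overlap, in the order treated SHR, SHR and WKY. The log2 change of Hspb7 was 0.75 (SE 0.17) in treated SHR over WKY (limma, adjusted p = 0.0188; 0.00440 to 0.0655 over the alternatives).

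Hspb6 (HSP20, abundant in smooth muscle) had 49.6, 59.8 and 67.4 FPKM in treated SHR libraries, against 41.5, 47.8 and 50.6 FPKM in SHR libraries and 37.4, 43.1 and 39.97 FPKM in WKY libraries. Only treated and WKY libraries were separate, with a log2 change of 0.53 (SE 0.12) (limma, adjusted p = 0.0199; 0.00428 to 0.0711 over the alternatives). Hspb2, which neighbours the crystallin gene Cryab, averaged 7.09 ± 2.0 FPKM in treated SHR, 11.3 ± 3.23 in SHR and 10.8 ± 2.90 in WKY (SD, n = 3 each), with a log2 change of -0.60 (SE 0.27) in treated SHR over SHR (limma, adjusted p = 0.330). Hspb11, which works in intraflagellar transport and is named Ift25 in RefSeq, had 9.48, 8.37 and 9.42 FPKM in treated SHR libraries, against 7.52, 7.67 and 7.15 FPKM in SHR libraries and 8.09, 8.79 and 8.49 FPKM in WKY libraries. Its SHR libraries lay below both other groups, with a log2 change of 0.26 (SE 0.08) in treated SHR over SHR (limma, adjusted p = 0.281).

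Of the mitochondrial chaperonin pair, only Hspe1 was called, and only in treated SHR over WKY (50.0%, against 22.9% of all genes). Whether the changes of the pair differ was not tested. Hspe1 (HSP10, the lid) had 257, 233 and 187 FPKM in treated SHR libraries, against 296, 347 and 269.7 FPKM in SHR libraries and 279.7, 350.3 and 344 FPKM in WKY libraries. Every treated library lay below every other library. Hspe1 fell in treated SHR over WKY by 0.53 on the log2 scale (SE 0.15; limma, adjusted p = 0.0373; 0.0163 to 0.120 over the alternatives), and gave -0.43 (SE 0.15) in treated SHR over SHR (adjusted p = 0.286). Hspd1 (HSP60, the barrel), transcribed from the shared region the other way, averaged 220.5 ± 32.5 FPKM in treated SHR, 219.6 ± 20.3 in SHR and 239.6 ± 37.6 in WKY (SD, n = 3 each), with no call. The log2 change of Hspd1 was -0.12 (SE 0.14) in treated SHR over WKY and -0.0006 (SE 0.14) in treated SHR over SHR. Processed copies of such abundant genes in the genome can take up short reads, which these values cannot show.

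Among the class A and class B J proteins other than Dnajb9 and Dnajb11, the partners that start the HSP70 cycle, none of 13 was called in any comparison. Of all genes, 2.96% were called in SHR over WKY, 0.0% in treated SHR over SHR and 22.9% in treated SHR over WKY. At an unadjusted p under 0.05, treated SHR over WKY had 1 of 4 class A (25.0%) and 4 of 9 class B members (44.4%), against 40.2% of all genes. Dnaja1 (a farnesylated partner of HSC70) had 119, 108 and 89.8 FPKM in treated SHR libraries, against 153, 153 and 146 FPKM in SHR libraries and 133, 117 and 132 FPKM in WKY libraries. The treated libraries all lay below the SHR libraries, and SHR lay above WKY throughout. Dnaja1 had the smallest p of any member in treated SHR over SHR, with a log2 change of -0.52 (SE 0.11; limma, adjusted p = 0.281), and -0.27 (SE 0.11) in treated SHR over WKY (adjusted p = 0.0912). Without treated library 1 the change in treated SHR over SHR was -0.61 and passed (limma, adjusted p = 0.0286).

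Dnajb1 (HSP40, a heat shock target) had 28.0, 38.2 and 37.0 FPKM in treated SHR libraries, against 35.0, 40.2 and 41.4 FPKM in SHR libraries and 25.4, 28.5 and 28.8 FPKM in WKY libraries. SHR lay above WKY, and treated library 1 fell within the WKY range. The log2 change was 0.48 (SE 0.12) in SHR over WKY (limma, adjusted p = 0.0885; 0.0224 to 0.265 over the alternatives), which passed in the fit of the 2 groups alone and without treated library 1. Also among the 3 members with the highest level in each class, Dnaja2, Dnaja3, Dnajb2 and Dnajb12 had log2 changes between -0.22 and 0.19 in every comparison. Every SHR library of Dnaja3 lay below every WKY library (-0.22; limma, adjusted p = 0.265). Dnaja4, named after its values were seen, had a mean level close to that of Dnajb12. Its log2 change was -0.35 in SHR over WKY (limma, adjusted p = 0.314) and -0.39 in treated SHR over WKY (adjusted p = 0.135).

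The class C J proteins are a mixed family that carry HSP70 to particular places. Of 24 tested, Dnajc27 rose in SHR over WKY (4.17%, against 2.96% of all genes called). Dnajc27 and Dnajc15 rose and Dnajc6, Dnajc12, Dnajc21 and Dnajc22 fell in treated SHR over WKY (25.0%, against 22.9% of all genes called). Dnajc27, a J protein with a Rab-like GTPase domain, had 3.52, 3.91 and 4.59 FPKM in treated SHR libraries, against 3.27, 2.94 and 3.69 FPKM in SHR libraries and 1.84, 2.14 and 1.74 FPKM in WKY libraries. Both SHR groups lay above WKY and overlapped each other. Dnajc27 had a log2 change of 0.56 (SE 0.12) in SHR over WKY (limma, adjusted p = 0.0443; 0.0310 to 0.178 over the alternatives) and 0.78 (SE 0.12) in treated SHR over WKY (adjusted p = 0.00647; 0.00324 to 0.0363 over the alternatives). The first call was kept by only 2 of the 9 fits that left out a library, those without treated library 1 or 3.

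Dnajc15, which works beside the protein import motor of the mitochondrial inner membrane, had 71.1, 77.1 and 85.7 FPKM in treated SHR libraries, against 67.0, 63.3 and 68.2 FPKM in SHR libraries and 41.4, 55.8 and 48.9 FPKM in WKY libraries. The 3 groups did not overlap. Its log2 change was 0.68 (SE 0.11) in treated SHR over WKY (limma, adjusted p = 0.00882; 0.00421 to 0.0405 over the alternatives) and 0.44 (SE 0.11) in SHR over WKY (adjusted p = 0.0836). Dnajc6 (auxilin, which helps HSC70 strip clathrin coats) had 1.05, 1.31 and 0.610 FPKM in treated SHR libraries, against 2.02, 1.36 and 1.75 FPKM in SHR libraries and 2.43, 2.53 and 2.01 FPKM in WKY libraries. Treated libraries were lowest, and SHR library 1 lay at the lower edge of WKY. Dnajc6 fell by 0.75 on the log2 scale (SE 0.16) in treated SHR over WKY (limma, adjusted p = 0.0179; 0.00923 to 0.0623 over the alternatives).

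The other falls among class C proteins in treated SHR over WKY were smaller or more scattered. Dnajc12, in humans a co-chaperone of aromatic amino acid hydroxylases, averaged 25.8 ± 0.908 FPKM in treated SHR, 30.4 ± 2.56 in SHR and 35.6 ± 5.42 in WKY (SD, n = 3 each), a log2 change of -0.44 (limma, adjusted p = 0.0286; 0.0158 to 0.0949 over the alternatives). Dnajc22 averaged 32.0 ± 8.89 FPKM in treated SHR, 42.6 ± 7.21 in SHR and 50.3 ± 4.52 in WKY, a log2 change of -0.67 (limma, adjusted p = 0.0439; 0.0120 to 0.112 over the alternatives). Dnajc21, a ribosome biogenesis factor, averaged 21.4 ± 3.41 FPKM in treated SHR, 27.7 ± 1.65 in SHR and 29.1 ± 4.26 in WKY, a log2 change of -0.43 (limma, adjusted p = 0.0499; 0.0117 to 0.156 over the alternatives). Treated and WKY libraries of Dnajc21 overlapped, those of Dnajc12 and Dnajc22 did not.

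How far the calls of treated SHR over WKY rested on single libraries differed between members. Dnajc15, Dnajc27 and Hspb1 stayed called in each of the 9 fits that left out a library and in every other setting that tested them. Dnajc27 was not tested with the filter at 5 FPKM. Without WKY library 3, Dnajc15, Dnajc27 and Hspb1 were the only 3 members called. The count was 6 without treated library 3, 8 without treated library 2, 9 without WKY library 1 and 27 without treated library 1, against 17 with all libraries. The calls over all genes shifted alike. They were 593 without WKY library 3, 945 without treated library 3 and 1076 without treated library 2. Without WKY library 1 they were 806 and without treated library 1 they were 4791, against 3010 of 13127 with all libraries. Dnajc6, Dnajc10, Dnajc12, Dnajc21, Dnajc22, Hspa5, Hspb6, Hspb7, Hspb8, Hspe1 and Hsph1 lost the call without treated library 3. Dnajc10, Dnajc12, Dnajc21, Dnajc22, Hspa4l, Hspb6, Hspb7, Hspe1 and Hsph1 lost it without treated library 2. Without WKY library 1 the calls of Dnajc6, Dnajc10, Dnajc21, Dnajc22, Hspa5, Hspb6, Hspb7, Hspe1 and Hyou1 were lost, and without WKY library 2 those of Dnajc10, Dnajc12, Dnajc22, Hspa5 and Hspe1. Leaving out SHR library 1 ended the calls of Dnajc10, Dnajc21, Dnajc22, Hspa5 and Hspe1, leaving out SHR library 2 those of Dnajc21, Dnajc22 and Hspa5, and leaving out SHR library 3 that of Dnajc21. In treated SHR over SHR, 830 of all genes were called without treated library 1, and Dnaja1 and Dnajc10 were then the members called.

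The promoter matches can be set beside these values as a description. All genes had median log2 changes of 0.07 in SHR over WKY, 0.04 in treated SHR over SHR and 0.11 in treated SHR over WKY. The shares of all genes called were 2.96%, 0.0% and 22.9% in the same order. In that order, the 5 members with a heat shock element had medians of 0.25, -0.43 and -0.20. Among them, Hsph1 was called higher and Hspe1 lower in treated SHR over WKY, and none was called in the other comparisons. In treated SHR over SHR, the values of Dnaja1, Hspa8 and Hspe1 were -0.52, -0.47 and -0.43, and those of Hspd1 and Hsph1 were 0.00 and 0.02. The 6 members with an ER stress response element had medians of 0.04, 0.02 and 0.05 in the order above. Xbp1 was called in both comparisons with WKY, and Hspa5 in treated SHR over WKY. The 3 with the second form of that element, Dnajb11, Herpud1 and Hyou1, had medians of 0.05, 0.14 and 0.19. Their log2 changes in treated SHR over WKY were 0.19, 0.02 and 0.46, and Hyou1 was the one called. The 4 with the unfolded protein response element, Dnajb3, Dnajc10, Dnajc25 and Hyou1, had medians of 0.09, 0.24 and 0.38. Of these, Dnajc10 and Hyou1 were called in treated SHR over WKY.

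Genes of the same pathways that the rule does not name were read from 6 lists. In SHR over WKY, calls were 1 higher of 38 genes for ER-associated degradation and quality control (Txndc11), 0 of 25 for translocation and secretory transport, 1 lower of 26 for the integrated stress response (Vldlr), 1 higher of 15 for ER stress transducers (Map3k5), 3 higher of 36 for cytosolic co-chaperones and heat shock factors (Fkbp5, Ahsa2 and Fkbp4) and 0 of 14 for the TRiC chaperonin and prefoldin, beside 2.96% of all genes. In treated SHR over WKY the same lists had 4 higher and 1 lower (13.2%), 5 and 1 (24.0%), 5 and 1 (23.1%), 7 and 0 (46.7%), 7 and 3 (27.8%), and 0, beside 22.9% of all genes. None of the 6 lists had a call in treated SHR over SHR.

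The largest of these differences between the strains was in Map3k5. Map3k5 (ASK1, a kinase that IRE1 can engage) had 8.27, 10.1 and 9.21 FPKM in treated SHR libraries, against 10.6, 10.8 and 10.3 FPKM in SHR libraries and 3.48, 3.21 and 3.69 FPKM in WKY libraries. Both SHR groups lay far above WKY, with a log2 change of 1.37 (SE 0.09) in SHR over WKY (limma, adjusted p = 7.84e-05). Fkbp5, an HSP90 co-chaperone and a target of the glucocorticoid receptor, averaged 15.7 ± 0.968 FPKM in treated SHR, 16.5 ± 1.17 in SHR and 7.80 ± 1.87 in WKY (SD, n = 3 each). Its log2 change was 1.01 (SE 0.14) in SHR over WKY (limma, adjusted p = 0.00600).

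Between treated SHR and WKY, the called genes with the smallest p in each list also included Txndc5, Txndc11, Uggt1 and Erp44 of ER quality control, Sec23b, Lman1, Srp14 and Srpra of secretory transport, Slc7a5, Aldh18a1, Trib3 and Vldlr of the integrated stress response, Atf6b, Wfs1 and Bak1 of the transducers, and Hspbap1, Fkbp4 and Clpb of the co-chaperones. All of these were higher in treated SHR except Erp44, Vldlr and Hspbap1. Trib3 passed the filter on low values only through its treated libraries. Slc7a5, an amino acid transporter that ATF4 induces, had 6.21, 8.08 and 10.8 FPKM in treated SHR libraries, against 5.65, 5.33 and 5.91 FPKM in SHR libraries and 2.51, 3.16 and 3.58 FPKM in WKY libraries. The 3 groups did not overlap, and the log2 change was 1.18 (SE 0.18) in treated SHR over WKY (limma, adjusted p = 0.00604). Txndc5, an ER thioredoxin-like oxidoreductase, averaged 30.1 ± 3.01 FPKM in treated SHR, 25.6 ± 0.621 in SHR and 21.0 ± 1.71 in WKY (SD, n = 3 each), a log2 change of 0.50 (SE 0.09; limma, adjusted p = 0.0109). Sec23b, part of the coat of vesicles that leave the ER, averaged 25.4 ± 1.70 FPKM in treated SHR, 20.8 ± 0.281 in SHR and 19.9 ± 0.881 in WKY, a log2 change of 0.34 (SE 0.07; limma, adjusted p = 0.0163).

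Markers of kidney cell types moved between the same libraries. The 13 collecting duct markers summed to 2805, 3785 and 5051 FPKM in treated SHR libraries, against 1975, 1905 and 2539 FPKM in SHR libraries and 1078, 1799 and 1218 FPKM in WKY libraries, and all 13 were called higher in treated SHR over WKY. The 15 proximal tubule markers summed to 7824, 8964 and 4322 FPKM in treated SHR, against 9894 to 11116 FPKM in SHR and 8361 to 10490 FPKM in WKY, with 3 of 15 called lower in treated SHR over WKY. Treated library 3, with the highest levels of Hspb1, Hspb8, Hspb6 and Hspb7 and the lowest of Hspa8, Dnaja1 and Hspe1, also had the highest collecting duct and the lowest proximal tubule sum. Podocyte markers (7) summed to 308 to 536 FPKM in treated SHR, 296 to 472 in SHR and 118 to 298 in WKY, and inner medulla markers (9) to 4798 to 6670 FPKM in treated SHR, 4607 to 5122 in SHR and 3533 to 4648 in WKY. Tubular injury markers (9) summed to 361 to 593 FPKM in treated SHR, 330.3 to 351 in SHR and 313 to 386 in WKY. Of 8 inner medulla markers tested, 3 were higher and 5 lower in treated SHR than in SHR, and 5 higher and 3 lower than in WKY. Of 8 tubular injury markers tested, 4 were higher and 4 lower than in SHR, and 3 higher and 5 lower than in WKY. In treated SHR over WKY, 1 inner medulla marker was called lower, and 2 tubular injury markers were called higher and 2 lower. Sums of late proximal tubule, thick ascending limb, endothelial, leukocyte and fibroblast markers overlapped between every pair of groups, and no marker was at 0 in all libraries. Of 8 late proximal tubule markers tested, 0 were higher and 8 lower in treated SHR than in SHR. Against WKY, 1 was higher and 7 lower, with 1 called higher and 2 called lower. Of 10 thick ascending limb markers tested, 4 were called higher and 1 lower in treated SHR over WKY. Of 6 leukocyte markers, 1 was higher and 5 lower than in SHR, and 6 were lower than in WKY. Endothelial and fibroblast markers each had 1 higher and 1 lower call over WKY. The part of these differences in the members' changes was not tested, and in whole tissue fewer cells of a type and less RNA per cell cannot be told apart.

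**Figure D4:**
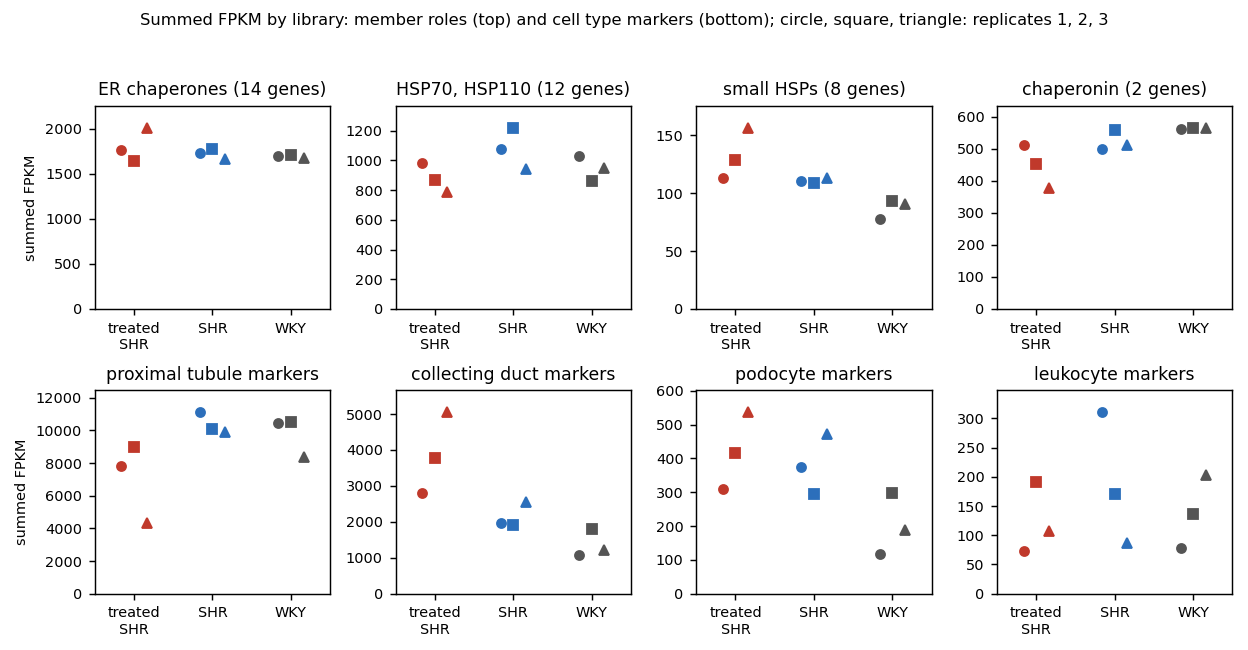
Summed FPKM in each library (circle, square and triangle for replicates 1, 2 and 3) of members by role in the upper row and of cell type markers in the lower row. Treated library 3 has the highest small heat shock protein sum, 157 FPKM, together with the highest collecting duct sum and the lowest proximal tubule sum.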

How the data were processed

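Kidney RNA was sequenced in 9 libraries. Trizol extracts of total RNA were sequenced on a BGISEQ-500 (single-end, 50 bases), per the labels' protocols. Per the submitters' processing notes, HISAT2 2.0.4, Bowtie2 2.2.5 and the rat build Rnor_6.0 were used, with no role stated. The authors computed FPKM and deposited 1 column per library, to 2 decimals, per the file headers; the program, annotation, strand setting and filters behind them are not stated in these sources. Columns left unused numbered 0. FPKM sums were 563643 to 589838 per library and correlations of log2 values across genes were 0.9695 to 0.9891 within groups and 0.9219 to 0.9875 between them. Read totals are unknown, so no counting interval is given. The value of 1 read was estimated from 146 weakly expressed genes and placed the 9 libraries within 1.08-fold of each other in depth. Only values close to each gene's lowest positive value entered this estimate, so a larger difference in depth could have been missed. Because FPKM shares a fixed total, a change in a few abundant transcripts shifts the others.

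Genes reaching 1 FPKM in 3 or more libraries were kept and put on the scale log2(FPKM + 1), where the pseudocount of 1 understates changes of weakly expressed genes. A group-means model of all 9 libraries (6 residual degrees of freedom) was fitted with limma 3.58.1 in R 4.3.3, with a trend in the variance prior, two-sided tests and p-values adjusted by Benjamini-Hochberg over the kept genes. Calls are adjusted p-values under 0.05. Python 3.11.15 with pandas 2.3.3, numpy 2.4.6 and matplotlib 3.10.9 made counts and plots.

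The members, roles and gene lists were chosen with earlier results of these data known. Members named with values are those called in any comparison, the 6 with the smallest p and the 3 with the largest change in each comparison, the 3 with the highest level in each role, and a fixed set of stress genes; genes of the 6 other lists are named where called, up to 4 a list and comparison by smallest p, with values for the first of most lists. All 84 member IDs were found in the RefSeq table (build GRCr8), 82 under the same symbol; Hspa1b is listed there as Hspa1a. RefSeq coordinates are used only for the promoter sequences printed. Alternatives were another pseudocount (0.1), filter or scaling, a fit of the 2 groups alone, a replicate block and leaving out each library in turn.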

Additional observations from a re-analysis of the deposited data

How the results depend on the processing

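None of the values counted next changed direction. Over 110 values of the 7 members followed in SHR over WKY, 84 stayed on the same side of the threshold, 17 lost the call and 9 gained it; in treated SHR over SHR these were 127, 0 and 1 of 128 values (8 members), and in treated SHR over WKY 204, 78 and 3 of 285 values (18 members). Leaving out 1 library at a time, the calls over all genes ranged from 167 to 626 in SHR over WKY (388 with all libraries), 0 to 830 in treated SHR over SHR (0) and 593 to 4791 in treated SHR over WKY (3010). The members called ranged from 0 to 4 in SHR over WKY (2), 0 to 2 in treated SHR over SHR (0) and 3 to 27 in treated SHR over WKY (17). Without treated library 1 all 3 comparisons gave their highest counts. With only the 2 groups compared in the fit, which leaves fewer residual degrees of freedom, treated SHR over WKY had 1026 genes and 6 members called. With no filter on low values, treated SHR over SHR had 2 genes called and SHR over WKY 1 member, Xbp1; with a filter at 5 FPKM SHR over WKY also had 1 member, Xbp1, with Dnajc27 no longer tested. The other causes were not tested. Of all genes called in SHR over WKY, 62.1% were higher, 51.6% with median-of-ratios scaling and 49.6% with quantile normalization; in treated SHR over WKY the shares were 73.5%, 54.2% and 59.9%.

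Replicate numbers carried no pairing: same-numbered libraries of different groups correlated between -0.328 and 0.456 in their deviations from the group means. With the replicate block, treated SHR over SHR had 1 gene called, SHR over WKY 1 member, Dnajb1 (282 genes) and treated SHR over WKY 18 members (2700 genes). Under it Xbp1 and Dnajc27 were no longer called in SHR over WKY nor Hspa5 in treated SHR over WKY, and Dnajb1 was called in SHR over WKY (limma, adjusted p = 0.0328). Hspa2 was called with the replicate block in treated SHR over WKY. Differences in depth between libraries were only estimated, at up to 1.08-fold, and a larger one could have been missed. The limit of depth falls mainly on weakly expressed members such as Dnajc6, Hspa1b and Hspb3.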
